A study of Mus musculus with 6 samples.

Results

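Complement and acute-phase genes were followed in cultured mouse aortic vascular smooth muscle cells (VSMCs), which give an artery its tone. The set holds 7 genes, C3, Cfb, Masp1, C1ra, Serping1, Saa3 and Lcn2, taken by name from the 22482 genes of the deposited mRNA table. The cells were C57BL/6 cells grown with 10% serum and given adenovirus for 48 h. By its labels, 1 group of 3 libraries carried a knockdown of Myocd, the coactivator that switches on smooth muscle genes, by adenovirus. The other group of 3 is the control, for which the treatment protocol names negative control viruses and the design text says wildtype. If those cells received no virus, responses to virus and to Myocd cannot be told apart. Since neither separate cultures nor separate animals are named, the p-values rest on a spread between libraries that may be only technical.

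Complement is a cascade of blood proteins, made largely in the liver but also by cells of many tissues, that marks surfaces for removal. Its classical arm starts with the C1 proteases, its lectin arm with the MASP proteases and its alternative arm with factor B, and all 3 arms meet at C3. Acute-phase proteins are secreted ones whose synthesis rises in inflammation, driven mainly by interleukin 6, interleukin 1, C/EBP factors, NF-kB and STAT3. In the vessel wall both groups of genes are expressed by stromal cells as well as by leukocytes.

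The level of Myocd goes against the labels. In FPKM, fragments scaled to transcript length and library size, the 3 knockdown-labelled libraries held 131.7, 130.1 and 145.5, against 0.0355, 0 and 0.125 in the 3 control-labelled ones. Libraries are therefore named by their labels throughout, and a gene given as higher was higher where Myocd was higher. Recovered fragments ranged from 7528170 to 9793781 per library. The 8 smooth muscle markers summed to 519.2 to 546.6 FPKM in the knockdown-labelled libraries and 228.7 to 253.6 FPKM in the control-labelled ones. Limma tested 6 of them and called 3 higher (Acta2, Lmod1 and Des) and 0 lower, where it called 1.83% of all tested genes higher. Smtn and Mylk did not pass (limma adjusted p = 0.904 and 0.636). Tagln averaged 7.52 FPKM in the knockdown-labelled libraries and 0.637 FPKM in the control-labelled ones. It missed the limma threshold (adjusted p = 0.0555) and passed in edgeR (adjusted p = 0.00255). Lmod1 reached the 0.5 FPKM needed for testing only in the knockdown-labelled libraries. It was at 0.583 to 0.825 FPKM there and at 0.0673 to 0.0937 FPKM in the control-labelled ones. Acta2 was at 332.3 to 346.2 FPKM in the knockdown-labelled libraries and 63.1 to 71.5 FPKM in the control-labelled ones, while Myh11 reached 0.0846 FPKM and Cnn1 0.353 FPKM at most in any library. The mesothelial marker Msln stood at 76.2 to 86.9 FPKM in the knockdown-labelled libraries and 73.1 to 77.5 FPKM in the control-labelled ones, while the other 4 mesothelial markers (Wt1, Upk3b, Lrrn4 and Upk1b) reached 1.05 FPKM at most. The libraries labelled replicate 3 differed from the others more than replicates 1 and 2 did, with 1588 genes at an unadjusted p under 0.05 in limma with group in the model, against 438 and 417.

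Promoters were at hand in RefSeq (GRCm38.p6) for 4 of the 7 genes, and are shown because the same short word recurs in all 4. Each runs 5′ to 3′ on the gene's own strand, from 250 bases before the annotated start to 50 bases after it. Saa3 is at chr7:46715627-46715926 (minus strand), C3 at chr17:57228087-57228386 (minus), Lcn2 at chr2:32387690-32387989 (minus) and C1ra at chr6:124512371-124512670 (plus). For Saa3 the window is set on the start at 46715676, which is also that of the deposited table, while the RefSeq gene extends upstream to 46719615. Capitals mark every match, on either strand, of 6 motifs described after the sequences.
Saa3: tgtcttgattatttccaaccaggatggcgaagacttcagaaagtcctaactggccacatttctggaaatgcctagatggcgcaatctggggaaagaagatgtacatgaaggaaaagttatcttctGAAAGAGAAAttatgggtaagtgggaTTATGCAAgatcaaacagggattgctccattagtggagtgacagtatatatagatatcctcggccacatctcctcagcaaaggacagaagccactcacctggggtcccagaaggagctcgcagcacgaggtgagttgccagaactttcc
C3: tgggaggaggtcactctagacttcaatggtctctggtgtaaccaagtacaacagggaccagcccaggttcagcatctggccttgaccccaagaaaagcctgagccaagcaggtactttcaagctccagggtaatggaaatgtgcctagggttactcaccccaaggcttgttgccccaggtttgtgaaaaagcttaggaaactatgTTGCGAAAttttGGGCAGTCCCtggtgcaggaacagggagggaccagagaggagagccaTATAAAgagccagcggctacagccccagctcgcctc
Lcn2: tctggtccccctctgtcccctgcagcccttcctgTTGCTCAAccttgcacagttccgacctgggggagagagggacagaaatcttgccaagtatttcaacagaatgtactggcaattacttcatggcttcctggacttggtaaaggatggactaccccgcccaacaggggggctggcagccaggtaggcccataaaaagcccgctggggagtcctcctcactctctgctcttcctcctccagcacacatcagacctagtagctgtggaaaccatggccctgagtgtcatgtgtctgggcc
C1ra: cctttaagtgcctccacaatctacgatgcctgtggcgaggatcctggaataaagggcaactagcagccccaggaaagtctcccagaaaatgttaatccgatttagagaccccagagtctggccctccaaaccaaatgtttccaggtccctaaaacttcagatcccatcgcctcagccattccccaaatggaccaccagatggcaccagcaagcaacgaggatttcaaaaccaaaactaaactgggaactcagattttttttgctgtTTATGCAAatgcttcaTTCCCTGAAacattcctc
The motif TTGCNNAA, a core recognised by C/EBP factors, had a match in 4 of 4 of these promoters and in 10.8% of 32851 RefSeq promoters of this length. On the strand shown it reads TTATGCAA in Saa3 and C1ra (the reverse complement of the motif), TTGCGAAA in C3 and TTGCTCAA in Lcn2. It begins at position -99 in Saa3, -45 in C3, -216 in Lcn2 and 17 in C1ra, counted from the annotated start as 1. The NF-kB-type motif (GGG, any 2 bases, T, any 2 bases, CC) matched in C3 alone (18.4% of all promoters), the STAT-type TTCNNNGAA in C1ra alone (8.3%) and the interferon-type motif (GAAA, any 2 bases, GAAA) in Saa3 alone (3.44%). TATAAA matched in C3 (13.6% of all promoters). The CArG box, the word bound by the serum response factor that Myocd works through, matched in 0 of 4 and in 1.63% of all promoters. No 2 matches overlapped. A match of letters is not a binding site, and a missing one says only that these letters are not in this window. The promoters were shown because TTGCNNAA recurs in them, so its 4 of 4 is a description and not a test. Of these genes Saa3 passed the main test given below, while C3, Lcn2 and C1ra did not. For Cfb and Masp1, which also passed, no promoter was at hand.

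Saa3, factor B (Cfb) and the lectin-arm protease gene Masp1 rose in the knockdown-labelled libraries. Of the 7 genes 3 passed upward and 0 downward in limma on log2(FPKM + 0.1), with an adjusted p under 0.05 over all 11612 genes tested. The same test called 3.44% of all tested genes, with 1.83% of all tested genes called upward and 1.61% downward. The other 4, C3, Lcn2, C1ra and Serping1, did not pass. All 7 had a positive log2 fold change, as had 5549 of the 11612 genes tested. For 5 of the 7 every knockdown-labelled library lay above every control-labelled library, which held for 13.3% of all tested genes. The median log2 fold change was 0.38 over the 7 and -0.01 over all tested genes. All 7 met the filter of 0.5 FPKM in at least 3 libraries. Serping1 met it through the knockdown-labelled libraries, since control 1 and control 2 lay below it, at 0.380 and 0.344 FPKM. In bulk RNA, more expressing cells and more RNA per cell cannot be told apart.

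**Figure D1:**
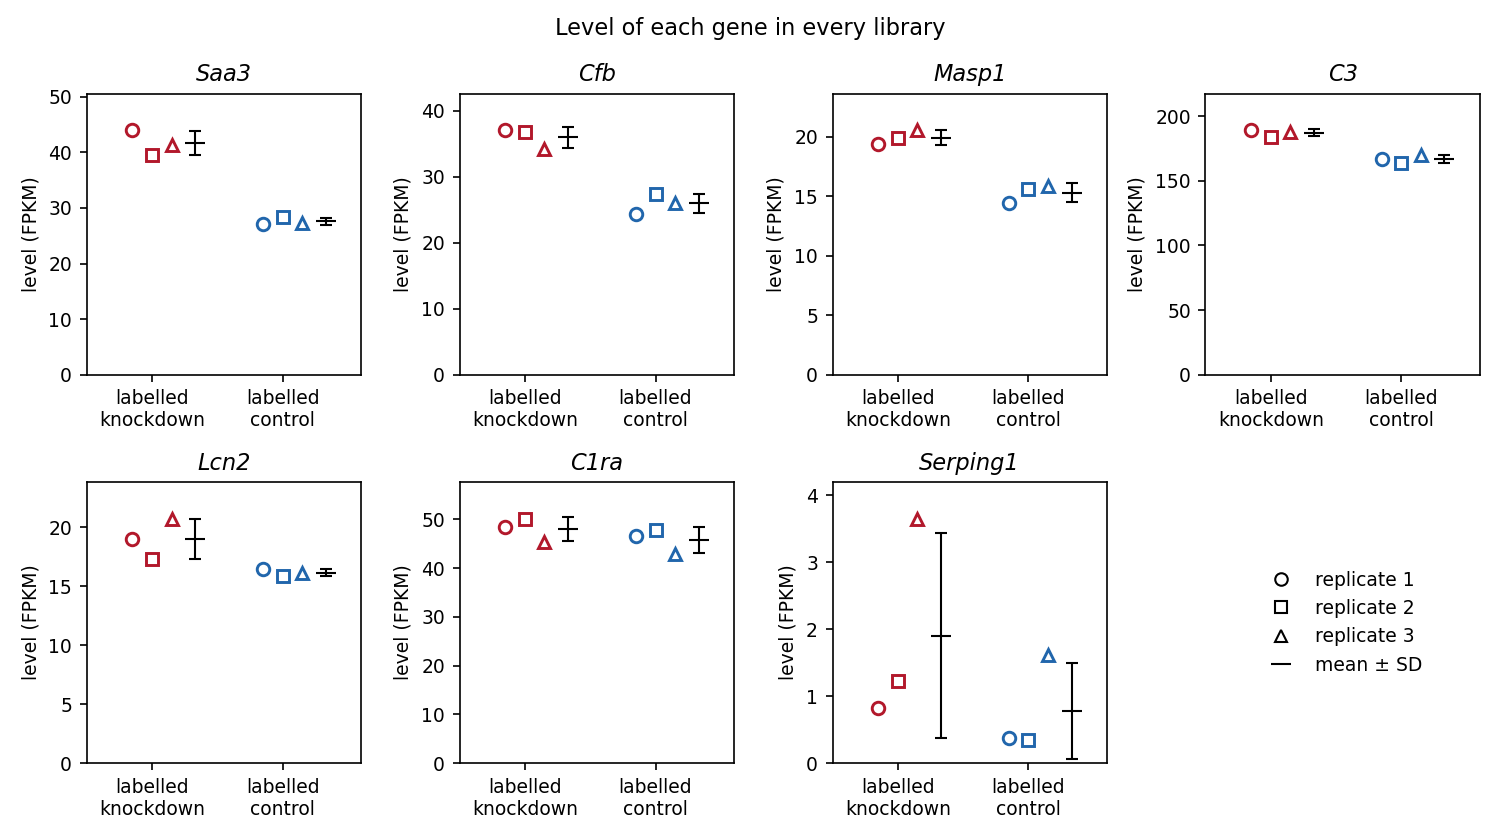
Level in FPKM of each of the 7 genes in every library, with 3 knockdown-labelled libraries on the left of each panel and 3 labelled control on the right, and the mean ± SD beside the points. The groups stand apart for Saa3, Cfb, Masp1, C3 and Lcn2 and overlap for C1ra and Serping1, where both replicate 3 libraries are the highest of their group for Serping1.

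By level per length the genes fell into tiers. C3 was the most abundant, between 163.6 and 189.1 FPKM over the 6 libraries, above the level of 97.0% of tested genes. C1ra followed at 42.9 to 50.2, Saa3 at 27.1 to 44.0, Cfb at 24.4 to 37.0, Masp1 at 14.4 to 20.6 and Lcn2 at 15.9 to 20.7 FPKM. Serping1 was lowest, from 0.344 to 3.65 FPKM. Over all libraries the ranges of C1ra and Saa3 overlapped, as did those of Saa3 and Cfb. Within each of the 6 libraries, though, C1ra was above Saa3 and Saa3 above Cfb. The ranges of Masp1 and Lcn2 overlapped too, and their order changed between libraries, so it is not set by these data.

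C3 (ENSMUSG00000024164) encodes the protein on which all complement arms converge. Its locus in the table, in mm10, is the minus strand of chromosome 17 from 57203970 to 57228136. It was at 189.1, 184.1 and 188.0 FPKM in the knockdown-labelled libraries and at 166.8, 163.6 and 170.0 FPKM in the control-labelled ones. The groups did not overlap, and the difference of the means, 187.1 ± 2.64 FPKM in knockdown-labelled against 166.8 ± 3.22 FPKM in control-labelled libraries (SD, n = 3 each), was larger than either spread. Its log2 fold change was 0.17 (SE 0.04, 95% interval 0.08 to 0.25), and the limma adjusted p was 0.0551. The edgeR quasi-likelihood test on recovered fragments called it, with a log2 fold change of 0.18 and adjusted p = 0.00245. These calls rest on 8499 to 10280 fragments per library.

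Cfb (ENSMUSG00000090231) encodes factor B, the protease that joins C3b in the alternative-pathway convertase. Values in the knockdown-labelled libraries were 37.0, 36.7 and 34.1 FPKM, and those in the control-labelled libraries were 24.4, 27.4 and 26.0 FPKM. The lowest of the first was thus well above the highest of the second. Group means came to 36.0 ± 1.6 FPKM in knockdown-labelled and 25.9 ± 1.49 FPKM in control-labelled libraries (SD, n = 3 each), a 1.39-fold rise with a log2 fold change of 0.47 (SE 0.06, limma adjusted p = 0.0159). EdgeR gave a log2 fold change of 0.44 with adjusted p = 0.000747. The call was lost when knockdown 1, knockdown 2, control 1 or control 2 was left out (adjusted p = 0.0675, 0.0707, 0.0649 and 0.0539) and held without knockdown 3 or control 3 (adjusted p = 0.0369 and 0.0482 in limma). Without both of those it was 0.0622.

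Cfb lies in the complement block of chromosome 17, on the minus strand. RefSeq places it from 34856374 to 34862514 in GRCm38, and the table gives it a locus shared with 3 other genes. One of them is C2, the classical-pathway relative of factor B, which ends next to it. C2 was near 0, with 0, 5 and 0 fragments in the knockdown-labelled libraries and 0, 0 and 3 in the control-labelled ones. The level of Cfb relative to C3 was 0.196, 0.200 and 0.182 in the knockdown-labelled libraries and 0.146, 0.167 and 0.153 in the control-labelled ones. That ratio stood apart between the groups (exact two-sided permutation p = 0.1, the smallest that 3 against 3 libraries allow).

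Masp1 (ENSMUSG00000022887) encodes the mannose-binding-lectin-associated serine proteases MASP-1 and MASP-3, which start the lectin arm and activate factor D. RefSeq sets it on chromosome 16 from 23451785 to 23521240, minus strand. It measured 19.4, 19.9 and 20.6 FPKM in the knockdown-labelled libraries and 14.4, 15.6 and 15.9 FPKM in the control-labelled ones, again with no overlap. It averaged 19.9 ± 0.599 FPKM in knockdown-labelled and 15.3 ± 0.799 FPKM in control-labelled libraries (SD, n = 3 each), a 1.30-fold rise. On the log2 scale it rose by 0.38 (SE 0.07, limma adjusted p = 0.0317; edgeR adjusted p = 0.00401). Leaving out any 1 of the 6 libraries ended the limma call, with adjusted p between 0.0593 (control 3) and 0.105 (control 1) and log2 fold changes between 0.34 and 0.41. It was also lost in limma without trend (adjusted p = 0.0613) and without both replicate 3 libraries (0.0931).

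Per unit of C3, Masp1 stood at 0.102, 0.108 and 0.109 in the knockdown-labelled libraries and 0.0863, 0.0955 and 0.0935 in the control-labelled ones. So Cfb and Masp1 were both higher relative to C3, by amounts larger than the spread within a group. For the Masp1 ratio the exact permutation p was also 0.1.

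**Figure D2:**
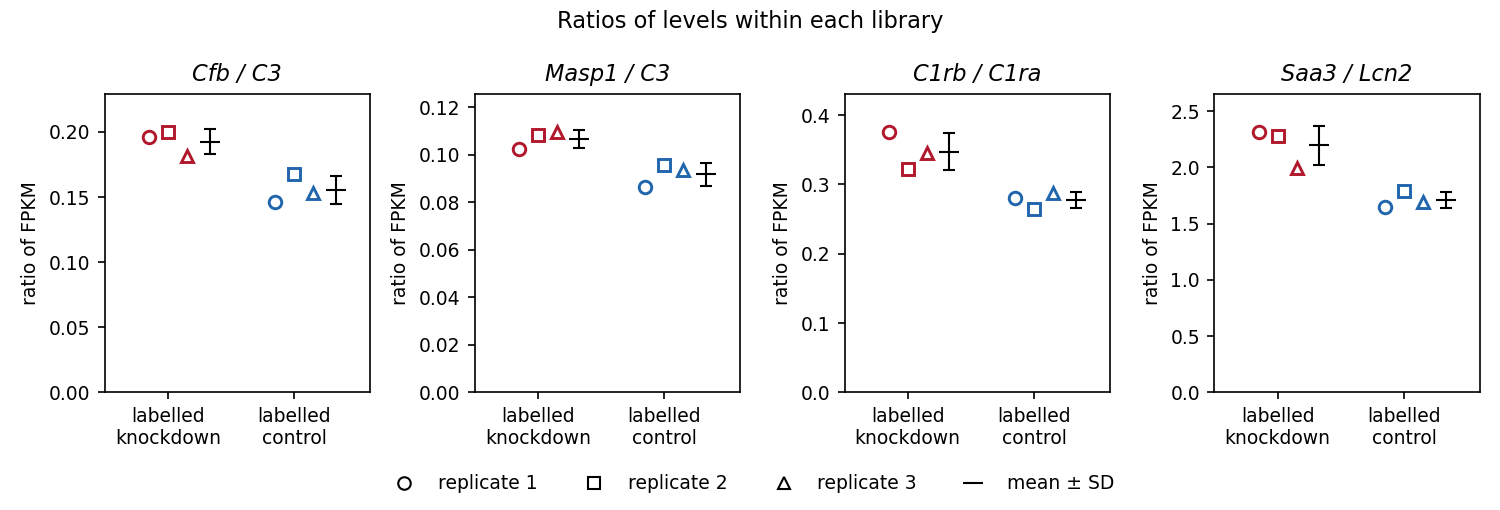
Ratio of the FPKM values of 2 genes within each library, for Cfb over C3, Masp1 over C3, C1rb over C1ra and Saa3 over Lcn2, with knockdown-labelled libraries on the left and the control-labelled ones on the right and the mean ± SD beside the points. In each panel the 3 knockdown-labelled libraries lie above the 3 labelled control.

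C1ra (ENSMUSG00000055172) encodes a C1r protease of the complex that opens the classical arm. Its levels were 48.5, 50.2 and 45.3 FPKM in the knockdown-labelled libraries and 46.6, 47.9 and 42.9 FPKM in the control-labelled ones. The groups overlapped, at 48.0 ± 2.48 FPKM in knockdown-labelled and 45.8 ± 2.60 FPKM in control-labelled libraries (SD, n = 3 each). The log2 fold change was 0.07, with a 95% interval from -0.08 to 0.22 (limma adjusted p = 0.559; edgeR adjusted p = 0.345). That interval covers no change as well as a rise of the size seen in C3. Its upper end lies under the log2 fold changes of Cfb and Masp1, though the difference between the genes was not tested.

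C1rb, the near-identical neighbour of C1ra on the plus strand of chromosome 6, did rise. It was at 18.2, 16.1 and 15.6 FPKM in the knockdown-labelled libraries and 13.1, 12.7 and 12.3 FPKM in the control-labelled ones (log2 fold change 0.39, SE 0.08, limma adjusted p = 0.0458; edgeR adjusted p = 0.00804). Each of the 6 libraries ended this limma call when left out, with adjusted p from 0.0649 (knockdown 3) to 0.129 (control 2). Since reads of C1ra and C1rb can be shared out between the copies, single values of either are uncertain. Their sum was 66.7, 66.3 and 60.9 FPKM in the knockdown-labelled libraries and 59.6, 60.5 and 55.2 FPKM in the control-labelled ones, so knockdown 3 stood only just above the highest control. The ratio of C1rb to C1ra was 0.375, 0.322 and 0.345 in the knockdown-labelled libraries and 0.280, 0.264 and 0.287 in the control-labelled ones.

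The partner protease gene C1s, whose product forms the C1 complex with C1r, differed between the units. In FPKM it was lower, at 238.7 ± 15.3 in the knockdown-labelled libraries and 254.7 ± 19.9 in the control-labelled ones (log2 fold change -0.09, limma adjusted p = 0.47). In recovered fragments it was higher, with an edgeR log2 fold change of 0.16 (adjusted p = 0.0545), and DESeq2 on the count columns called it higher (log2 fold change 0.16, adjusted p = 0.022). No direction is given for it. The C1s copy listed as Gm5077 (C1s2 in the gene name table) averaged 33.6 ± 0.833 FPKM in the knockdown-labelled libraries and 29.0 ± 1.49 FPKM in the control-labelled ones. It missed the limma threshold (adjusted p = 0.0865) and passed in edgeR (adjusted p = 0.0138). Of the recognition molecules, C1qa, C1qb and C1qc reached 0.131 FPKM at most in any library.

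Serping1 (ENSMUSG00000023224) encodes C1 inhibitor, the serpin that blocks C1r, C1s and the MASPs. RefSeq sets it on chromosome 2 from 84765360 to 84775444, minus strand. It was at 0.823, 1.23 and 3.65 FPKM in the knockdown-labelled libraries, against 0.380, 0.344 and 1.61 FPKM in the control-labelled ones. Both replicate 3 libraries were the highest of their group, and control 3 lay above knockdown 1 and knockdown 2. The recovered fragments were 14, 13 and 35 in the knockdown-labelled libraries and 7, 6 and 27 in the control-labelled ones. With replicate 3 set against the other replicates the log2 difference was 1.83 (limma adjusted p = 0.152), larger than the log2 fold change between the groups.

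That fold change was 1.22 with an SE of 0.68 and a 95% interval from -0.39 to 2.82 (limma adjusted p = 0.34). Without replicate 3 of both groups it was 1.26 (limma adjusted p = 0.16). Fragments gave less, 0.82 in edgeR (adjusted p = 0.41). The FPKM value per fragment spread 1.92-fold over the libraries for Serping1, against 1.25- to 1.32-fold for the other 6 genes. The means were 1.90 ± 1.53 FPKM in knockdown-labelled and 0.779 ± 0.723 FPKM in control-labelled libraries (SD, n = 3 each), a gap smaller than the SD of the knockdown-labelled ones.

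Saa3 (ENSMUSG00000040026) encodes serum amyloid A3, the mouse serum amyloid made mainly outside the liver. The table puts it on chromosome 7 from 46711998 to 46715676, minus strand. It stood at 44.0, 39.6 and 41.4 FPKM in the knockdown-labelled libraries and at 27.1, 28.4 and 27.3 FPKM in the control-labelled ones. No other of the 7 genes had groups as far apart relative to their spread by the limma p. Knockdown-labelled libraries averaged 41.7 ± 2.22 FPKM and control-labelled ones 27.6 ± 0.669 FPKM (SD, n = 3 each), a 1.51-fold rise. The log2 fold change was 0.59 (SE 0.06, 95% interval 0.46 to 0.72, limma adjusted p = 0.00717; edgeR adjusted p = 0.00785).

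The Saa3 values rest on 147, 131 and 124 recovered fragments in the knockdown-labelled libraries and 98, 97 and 102 in the control-labelled ones. The call held with any 1 library left out, with adjusted p from 0.0238 to 0.0408 in limma, and was lost without both replicate 3 libraries (adjusted p = 0.0543). Its relatives were at or near 0. Saa1 and Saa2, the hepatic acute-phase amyloids, were at 0 in all 6 libraries, and the limit set by a count of 0 is 3 fragments per library. Saa4 had 3 fragments at most.

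Lcn2 (ENSMUSG00000026822) encodes lipocalin 2, which binds bacterial siderophores and so withholds iron. RefSeq has it on chromosome 2 from 32384637 to 32387739, minus strand. The levels were 19.0, 17.3 and 20.7 FPKM in the knockdown-labelled libraries and 16.5, 15.9 and 16.1 FPKM in the control-labelled ones. The groups did not overlap, though knockdown 2 lay within 1 FPKM of control 1. The averages were 19.0 ± 1.70 FPKM in knockdown-labelled and 16.2 ± 0.295 FPKM in control-labelled libraries (SD, n = 3 each), and the log2 fold change was 0.23 (SE 0.08, 95% interval 0.05 to 0.42). Lcn2 did not pass in limma (adjusted p = 0.145) or in edgeR (adjusted p = 0.18). The interval holds the smaller log2 fold change of C3, 0.17, and its upper end lies under the lower end of the Saa3 interval.

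Relative to Lcn2, Saa3 stood at 2.31, 2.28 and 2.0 in the knockdown-labelled libraries and at 1.65, 1.79 and 1.69 in the control-labelled ones. The receptor gene of lipocalin 2, Slc22a17, reached 0.157 FPKM at most, too low to be tested. Mmp9, whose product lipocalin 2 binds, was also below the filter, at 0.153, 0.125 and 0.351 FPKM in the knockdown-labelled libraries and 0.458, 1.19 and 1.03 FPKM in the control-labelled ones. Its fragments were 5, 4 and 6 in the knockdown-labelled libraries and 12, 11 and 6 in the control-labelled ones.

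Across the wider complement list, expression was patchy. Of 51 complement genes listed there, 21 were expressed highly enough to be tested, and 11 were at 0 in all 6 libraries. Upward calls were 3, Cfb, Masp1 and C1rb, downward calls were 0 and 18 did not pass. Limma called 1.83% of all tested genes upward and 1.61% downward. The median log2 fold change of the tested genes was 0.16, against -0.01 over all genes. EdgeR called 5 of 20 upward and 0 downward, adding C3 and Gm5077, where it called 5.45% of all tested genes upward. Leaving out the 7 genes, 1 of 16 tested members rose in limma. It was C1rb, whose call ended with any 1 library left out.

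By role, the initiating components held 2 of the 3 calls among 7 tested, and the core components and convertases 1 among 4. The share called upward over all tested genes was 1.83%. Among the 7 tested regulators 0 passed in limma, with 1 at an unadjusted p under 0.05 and 0 called by edgeR. Of the 3 tested receptors 0 passed, with 0 at an unadjusted p under 0.05 and 0 called by edgeR. Over all 11612 genes tested, 2603 were at an unadjusted p under 0.05 in limma. Terminal components were scarcely expressed, with 6 fragments at most of any of Hc, C6, C7, C8a, C8b, C8g and C9 in a library. C8g, chosen after its values were seen, averaged 0.385 ± 0.0844 FPKM in the knockdown-labelled libraries and 1.22 ± 0.332 FPKM in the control-labelled ones and did not pass (limma log2 fold change -1.43, adjusted p = 0.0607). It met the filter of 0.5 FPKM only through the control-labelled libraries, since the knockdown-labelled ones lay at 0.295 to 0.462 FPKM. Its fragments were 3, 4 and 4 in the knockdown-labelled libraries and 5, 5 and 6 in the control-labelled ones, with a DESeq2 log2 fold change of -0.40. Of the receptors, C3ar1, which binds the C3a fragment, was at 1.97 to 2.17 FPKM in the knockdown-labelled libraries and 1.80 to 2.18 FPKM in the control-labelled ones (limma adjusted p = 0.979).

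The acute-phase list was narrower still. Of its 40 genes 15 were tested, 12 were at 0 in all 6 libraries, and 2 rose, Saa3 and ceruloplasmin (Cp), while 0 fell and 13 did not pass. The share called upward over all tested genes was 1.83%, and without Saa3 and Lcn2 1 of 13 tested members rose. Cp, a copper-carrying ferroxidase, was at 409.4, 417.3 and 418.5 FPKM in the knockdown-labelled libraries and at 351.5, 369.6 and 352.8 FPKM in the control-labelled ones. Its rise was small (log2 fold change 0.21, SE 0.04, limma adjusted p = 0.0286; edgeR adjusted p = 8.78e-05), and each single library ended the limma call when left out (adjusted p from 0.0664 without knockdown 3 to 0.109 without control 1). Quantile normalization (adjusted p = 0.0507) and limma without trend (0.108) ended it too.

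The median log2 fold change over the 15 was -0.01, as over all tested genes. Itih4, an inter-alpha-trypsin inhibitor chain, averaged 0.958 ± 0.262 FPKM in the knockdown-labelled libraries and 0.304 ± 0.142 FPKM in the control-labelled ones. It missed the limma threshold (adjusted p = 0.0986) and passed in edgeR (adjusted p = 0.0256) on 4 to 21 fragments per library. Itih4 met the filter of 0.5 FPKM only through the knockdown-labelled libraries, since the control-labelled ones lay at 0.161 to 0.446 FPKM. The endotoxin co-receptor gene Cd14 had a lower mean in the knockdown-labelled libraries, 17.2 ± 1.86 FPKM, than in the control-labelled ones, 20.8 ± 1.08 FPKM, and did not pass (limma adjusted p = 0.132).

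**Figure D3:**
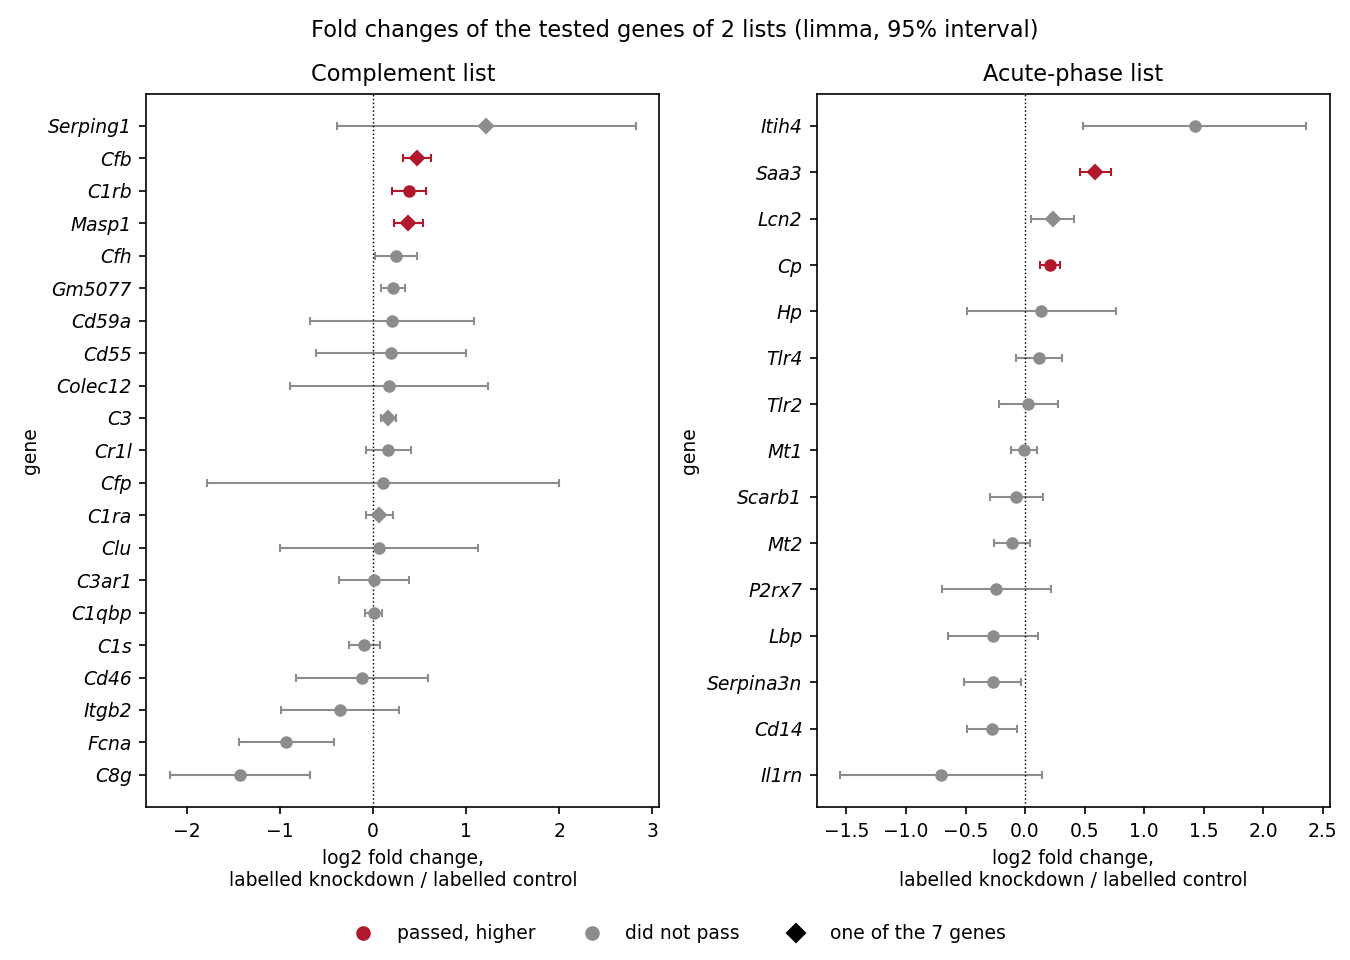
Log2 fold change (labelled knockdown over labelled control) and 95% interval from limma for every tested gene of the complement and acute-phase lists, with diamonds for the 7 genes and colour for genes that passed. The calls are few and small, upward in both lists (Cfb, C1rb, Masp1, Saa3, Cp), and the widest intervals belong to genes of low level such as Serping1.

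The upstream list held genes that act upstream of complement and acute-phase transcription. Of 28 such genes with values, 25 were tested, and 0 rose, 2 fell and 23 did not pass, with a median log2 fold change of 0.04, where 1.61% of all tested genes fell. EdgeR on recovered fragments called 1 of 25 higher and 3 lower. Over all 11563 genes it tested, it called 630 higher (5.45%) and 520 lower. The higher one of the list was Tnfaip3, a feedback inhibitor of NF-kB, named after its values were seen (edgeR adjusted p = 0.0233, limma adjusted p = 0.507). Cebpa, a C/EBP factor, was 1 of the 2 that fell. It was at 5.82, 5.70 and 5.12 FPKM in the knockdown-labelled libraries and at 7.67, 7.92 and 8.23 FPKM in the control-labelled ones (log2 fold change -0.51, SE 0.09, limma adjusted p = 0.0368; edgeR adjusted p = 0.00825). Leaving out any 1 library ended the call in limma, with adjusted p from 0.0739 (knockdown 3) to 0.117 (control 2). Cebpb, a further C/EBP gene chosen after its values were seen, averaged 45.1 ± 1.57 FPKM in the knockdown-labelled libraries and 51.1 ± 3.71 FPKM in the control-labelled ones and did not pass (limma adjusted p = 0.165).

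Among the 11 tested cytokine and receptor genes limma called 0, with 3 at an unadjusted p under 0.05, and edgeR called 0. That unadjusted p was reached in limma by 2603 of the 11612 genes tested. Rela, the p65 subunit of NF-kB, averaged 18.4 ± 0.503 FPKM in the knockdown-labelled libraries and 21.8 ± 1.19 FPKM in the control-labelled ones (limma adjusted p = 0.0878), and edgeR called it lower (adjusted p = 0.0328). Il6, the main inducer of the hepatic acute phase, averaged 40.3 ± 3.23 FPKM in the knockdown-labelled libraries and 32.7 ± 3.07 FPKM in the control-labelled ones (limma adjusted p = 0.104; edgeR adjusted p = 0.0505). Stat3, named after its values were seen, had an interval on the log2 scale from -0.11 to 0.24.

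Markers of other cell types gave the setting for these values. The hepatocyte genes Alb, Ttr, Serpina1c and Ahsg were at 0 in every library, and the whole list of 6 summed to 0.715 to 1.35 FPKM in the knockdown-labelled libraries and 0.587 to 0.747 FPKM in the control-labelled ones. Of 9 macrophage markers 7 stayed below 0.5 FPKM in every library, among them Ptprc, Csf1r and Emr1, with Tyrobp at 0. Their sum, most of it Cd68, was 4.71 to 5.69 FPKM in the knockdown-labelled libraries and 2.85 to 5.41 FPKM in the control-labelled ones. Of 6 neutrophil markers 4 were at 0 throughout, and the sum was 1.18 FPKM at most. The 6 endothelial markers summed to 0.77 FPKM at most. Fibroblast markers summed to 22.8 to 26.4 FPKM in the knockdown-labelled libraries and 21.6 to 22.2 FPKM in the control-labelled ones. Limma called 0 of the 3 tested, with 1, Dcn, at an unadjusted p under 0.05, and edgeR called 0. DESeq2 on the count columns called Dcn higher (log2 fold change 0.79, adjusted p = 0.0441), as it did 408 genes over the whole table. Pdgfra and Dpt, also tested, had limma log2 fold changes of -0.003 and -0.09. The part of these markers in the results of the 7 genes was not tested.

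Noncoding transcripts paired with the 7 genes in the lncRNA table were 6, of which 4 lie antisense within introns of Masp1, 1 is antisense to Cfb and 1 lies in an intron of C1ra. Limma tested 4 and called 0, with 1 at an unadjusted p under 0.05, where it called 4.26% of all 4955 transcripts tested. The antisense transcript of Cfb averaged 2.57 ± 0.516 FPKM in the knockdown-labelled libraries and 2.84 ± 0.394 FPKM in the control-labelled ones (limma adjusted p = 0.787). The most abundant Masp1 antisense transcript was at 8.34, 10.9 and 14.5 FPKM in the knockdown-labelled libraries and 6.35, 9.03 and 5.38 FPKM in the control-labelled ones (limma adjusted p = 0.295). The groups overlapped, and without knowing whether strand was used in counting, fragments of Masp1 and of these transcripts cannot be told apart.

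Each of the 7 genes was also matched to the genes whose pattern over the 6 libraries was most like it, by Pearson's r of log2(FPKM + 0.1) among 10688 genes. These 6 points share 2 groups, and r is a description only. For C3 they were Gbp2, an interferon-induced GTPase (r = 0.999), and Ptges, a prostaglandin E synthase (r = 0.996). For Cfb they were mt-Cytb, mitochondrial cytochrome b, and Ythdc2, an RNA helicase (r = 0.996 each). For Masp1 they were Cdkn1a, a cell cycle inhibitor (r = 0.998), and the ubiquitin gene Ubb (r = 0.997), and for Saa3 Cenpk, a kinetochore gene, and Acaa1a, a peroxisomal thiolase (r = 0.997 each). The likeness was weaker for Lcn2, with Taf1 (r = 0.992) and Msl3l2 (r = 0.990), for C1ra, with Rock1 (r = 0.987) and Rab3gap1 (r = 0.986), and for Serping1, with Rilp (r = 0.984) and Tnk2 (r = 0.982). The rise of Ptges depended on the unit. Its log2 fold change was 0.69 in limma on FPKM and 0.17 in edgeR on recovered fragments (edgeR adjusted p = 0.447).

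Under 21 other settings the log2 fold change of Saa3 stayed between 0.55 and 0.63, that of Cfb between 0.43 and 0.51, that of Masp1 between 0.34 and 0.41 and that of C3 between 0.12 and 0.18. It ranged from 0.17 to 0.30 for Lcn2, from 0.02 to 0.11 for C1ra and, over 20 settings, from 0.63 to 1.85 for Serping1. Saa3 passed in 20 of the 21, Cfb in 16, Masp1 in 12 and C3 in 6. Lcn2 and C1ra passed in 0 of 21, and Serping1 in 0 of the 20 that gave an adjusted p. Among the 7 genes, the number called without both replicate 3 libraries was 0 in limma, with 5 at an unadjusted p under 0.05. The share of all genes at that p without these libraries was not counted. EdgeR and DESeq2 each called 4 on all 6 libraries.

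**Figure D4:**
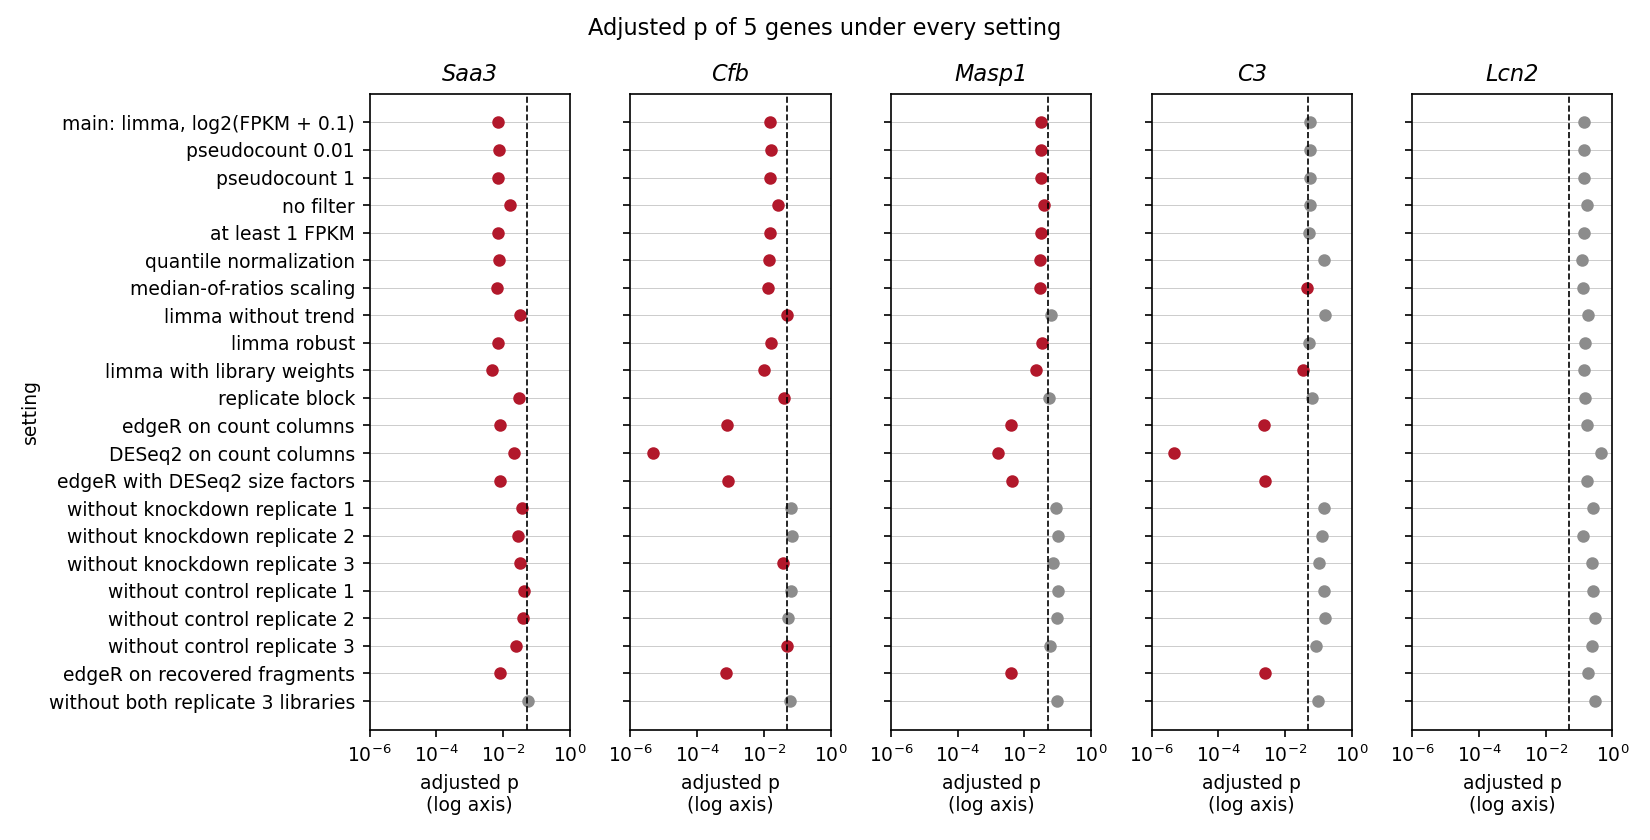
Adjusted p on a log axis for Saa3, Cfb, Masp1, C3 and Lcn2 under the main test and 21 other settings, with the dashed line at 0.05 and colour for values below it. Saa3 lies left of the line in all but the setting without both replicate 3 libraries, and C3 lies left of it mainly where counts were tested with edgeR or DESeq2.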

How the data were processed

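Total RNA freed of ribosomal RNA was sequenced in 6 stranded libraries of VSMCs, 3 per label, per the labels' protocols. The submitters' processing notes name HISAT2 2.0.4, Cuffdiff 2.2.1, Cufflinks and cutadapt, and 2 builds, mm9 and mm10, with no role for either. For the annotation release and the use of strand in counting, the answer is not given in the sources used here. FPKM values, scaled to length and library size, were deposited by the authors. They also deposited estimated counts, which behave as fragments multiplied by 1 constant per library. Dividing by that constant (0.916 to 1.20) left 89.4% to 90.4% of values above 0 within 0.01 of a whole number.

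Rows of 79 repeated symbols were summed. The table start plus 1 equals the GRCm38 RefSeq start of 6275 genes, so coordinates are mm10. The main test was limma 3.58.1 with trend (R 4.3.3) on log2(FPKM + 0.1), which understates fold changes of low genes, for genes at 0.5 FPKM in at least 3 libraries (lncRNA transcripts at 0.1 FPKM), with two-sided p adjusted by Benjamini and Hochberg and a threshold of 0.05. EdgeR 4.0.16 and DESeq2 1.42.0 on rounded counts were alternatives. The tests were tried on simulated data. The 95% intervals are limma's, from the spread between libraries, and the limit at a count of 0 covers counting error only. The 7 genes, the lists of complement, acute-phase and upstream genes and the markers were chosen with earlier results of these data known. List genes were matched by symbol, gene ID or synonym, and 1 complement and 1 upstream gene are not analysed here. Named genes are the 7, Myocd, list members called or of smallest p up to 4 a list, the paralogs and neighbours, and the 2 most alike genes of each. Other genes named with values (C1q, C3ar1, the terminal components, Slc22a17, Mmp9, Cebpb, Stat3 and Tnfaip3) were chosen after their values were seen. The values of 1 further called gene of the upstream list are not reported here.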

Additional observations from a re-analysis of the deposited data

How the results depend on the processing

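The main test called 400 genes over the whole table. Limma without trend called 144, with library weights 624, with the replicate block 243 and without both replicate 3 libraries 76, while edgeR called 1143 on the count columns, 1140 with DESeq2 size factors and 1150 on recovered fragments and DESeq2 748. Leaving out each library in turn gave 44 to 178 genes. The fits on recovered fragments, those without both replicate 3 libraries and the lncRNA alternatives were chosen after seeing the data. The 7 genes gave 3 calls, 1 to 2 with a library left out in turn and 0 without both replicate 3 libraries. The complement list gave 3 calls, 5 with library weights (4 upward, 1 downward), 5 in each edgeR fit, 6 in DESeq2, 1 with the replicate block, 0 to 1 with a library left out and 0 without both replicate 3 libraries. The acute-phase list gave 2, with 1 under quantile normalization, 1 without trend, 1 with any library left out and 0 without both replicate 3 libraries. The upstream list gave 2, with 5 in edgeR on count columns, 4 with DESeq2 size factors and 4 on recovered fragments, 1 with the replicate block, 0 to 1 with a library left out and 1 without both replicate 3 libraries. The lncRNA table gave 211, 79 with a pseudocount of 1, 1 with the replicate block and 10 to 298 with a library left out. C1s turned upward on counts, with log2 fold changes of 0.16 in each edgeR fit and 0.16 in DESeq2. Fewer samples or fragment counts enter several of these fits, and beyond that the cause was not tested. The labels do not say whether a replicate number marks a shared culture. The deviations of same-numbered libraries from their group means correlated at 0.037, -0.004 and 0.1, and values this low cannot decide it. Under the block Masp1 had an adjusted p of 0.0536, C1rb 0.0624 and Cebpa 0.0772 in limma, none of them then called, Serping1 had 0.0876, and 2 of the 7 genes passed. Of the 7 genes Serping1 had the fewest fragments, 6 to 35 per library.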
